A study of Mus musculus with 24 samples.

Results

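The fragments described here were methylated in vitro before they entered mouse cells, and were read in the undifferentiated cells and again after these had become neural progenitors (NPs). Each is a copy of FR1, a bacterial DNA fragment that carried either 1 transcription factor motif (WT) or the same motif scrambled (Sc), and that was integrated at the β-globin locus of embryonic stem cells (ESCs). A fragment was taken into the comparison where both pools gave at least 10 reads at the same CpG, between -300 and 260 bp from the motif. All 62 fragments of the deposited tables met this rule: 30 WT fragments, 31 Sc fragments (FOXD3 has a pair of them) and the fragment without a motif. Of the CpG pairs listed, 1448 were compared and 164 fell under the read limit. Most fragments were read at 18 CpGs upstream and 5 CpGs downstream of the motif, and 15 motifs hold CpGs themselves.

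Both pools descend from TC-1 ESCs of a C57BL/6 X 129S5 background. The plasmid library had been treated before transfection with M.SssI, a bacterial enzyme that methylates every CpG, and is called +SssI. The ESC pool was taken undifferentiated, and the NP pool came from the same ESCs after aggregation and retinoic acid. Each cell type is represented by 1 pool, given as 5 numbered sets of reads for ESCs and 9 for NPs, called runs here. The labels do not say whether a run is a technical or a biological replicate, and the paper pooled both kinds. One of the NP samples is labelled as read on a capillary sequencer, and the labels do not say which runs are its own, so all NP runs were taken as 1 pool. The tests below therefore compare 2 pools of reads. They do not measure the spread between independent differentiations.

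In vertebrates the methyl group of a CpG is copied onto the new strand at each division by DNMT1 with UHRF1, is added de novo by DNMT3A and DNMT3B, and is oxidised on the way to removal by the TET enzymes. Transcription factors differ in how methylation of their motif affects binding, and some can bind methylated DNA and leave the CpGs around their motif unmethylated. ESCs are set apart by an unusually high level of TET1 and TET2 and of the de novo enzymes, and a fragment that is unmethylated in ESCs may be kept so, or filled in, as the cells differentiate.

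The runs of 1 pool were not interchangeable, and this bears on what follows. ESC run 4 gave lower methylation than ESC run 5 for 31 of the 33 fragments that both runs held upstream, with medians of 36.2% and 72.6%. Each fragment was spread unevenly over the runs, and for 7 of 30 motifs (FOXD3, SOX17, N-MYC, ETS, SOX2, GR and KLF4) run 4 gave over 50% of the WT reads and run 5 over 50% of the Sc reads in ESCs. Over the runs of the same pool the upstream level of 1 fragment ranged by a median of 34.8 points in ESCs (46 fragments) and 10.6 points in NPs (53 fragments). NP runs 2 and 9 split their reads over the fragments alike within sampling noise (chi-square test, 1.18 per degree of freedom, p = 0.172). The other 20 pairs of NP runs gave 7.9 to 129 per degree of freedom. Runs 2 and 9 were taken as 1 run in the ranges above and in the count of fragments whose runs do not overlap. For single fragments they are listed and counted as separate runs, although they may not be independent. Runs held from 10781 to 277031 CpG calls in ESCs and from 378 to 172916 in NPs. The median number of reads per CpG and fragment was 198 in ESCs (13 to 1541 over fragments) and 370 in NPs (29 to 1243). Intervals below are 95% counting intervals at the median reads of the fragment. They do not cover differences between runs, or reads that descend from the same integrated copy.

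RNA sequencing of ESCs and NPs, 3 libraries each with 20519702 to 23976914 counted reads, was used to check the cell types. All 7 pluripotency genes were lower in NPs and all 7 neural progenitor genes were higher (edgeR quasi-likelihood test, adjusted p under 0.001 and at least 3-fold). Pou5f1, which encodes OCT4, stood at 402 ± 16.8 RPKM (reads scaled to gene length and library size, SD, n = 3) in ESCs and at 1.18 ± 0.773 in NPs. Pax6, a regulator of neural progenitors, went from 0.358 ± 0.025 to 15.9 ± 3.3 RPKM. In bulk RNA, fewer cells that express a gene and less RNA per cell cannot be told apart. Of 5 endoderm genes, 3 were higher in NPs, namely Sox17, Gata6 and Foxa2. Of 4 mesoderm genes, 2 reached the level needed for a test and neither was called. Over all 15181 genes tested, 12.4% were called higher and 9.98% lower in NPs.

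Premethylated fragments were more methylated in NPs than in ESCs. The mean level over a fragment was higher in NPs for 60 of 62 fragments and lower for 2, FOXA1 WT and KLF4 Sc. Fisher's exact test over reads called 1012 of 1448 CpGs higher in NPs (69.9%) and 60 lower (4.14%), at an adjusted p under 0.05 and a difference of at least 10 points. The fragment without a motif went from 62.8% to 86.6%, a difference of 23.8 points (17.8 to 29.8), and 23 of its 24 CpGs were called higher. In its upstream runs it was read at 36.2% and 70.1% in ESC runs 4 and 5, and between 81.7% and 93.2% in 5 NP runs, so the pools did not overlap. Of the 42 fragments read upstream in 2 or more runs of both pools, 23 (54.8%) had every NP run above every ESC run, and 0 had every NP run below.

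Sc fragments averaged 67.4% ± 10.7 (SD over 31 fragments) in ESCs and 87% ± 6.5 in NPs. The change of a Sc fragment ranged from -14.2 to 45 points, with a mean of 19.6. WT fragments started lower and spread more widely, at 51.4% ± 20.6 (SD over 30 fragments) in ESCs and 77.2% ± 15.3 in NPs, with a mean change of 25.8 points. Without ESC run 4 the mean change was 15.7 points for Sc and 13.9 points for WT fragments. In NPs, CTCF.2 (34.4%), SOX17 (37.1%) and REST (54.2%) were the least methylated WT fragments, while the lowest Sc fragment was KLF4 at 61.1%.

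**Figure D1:**
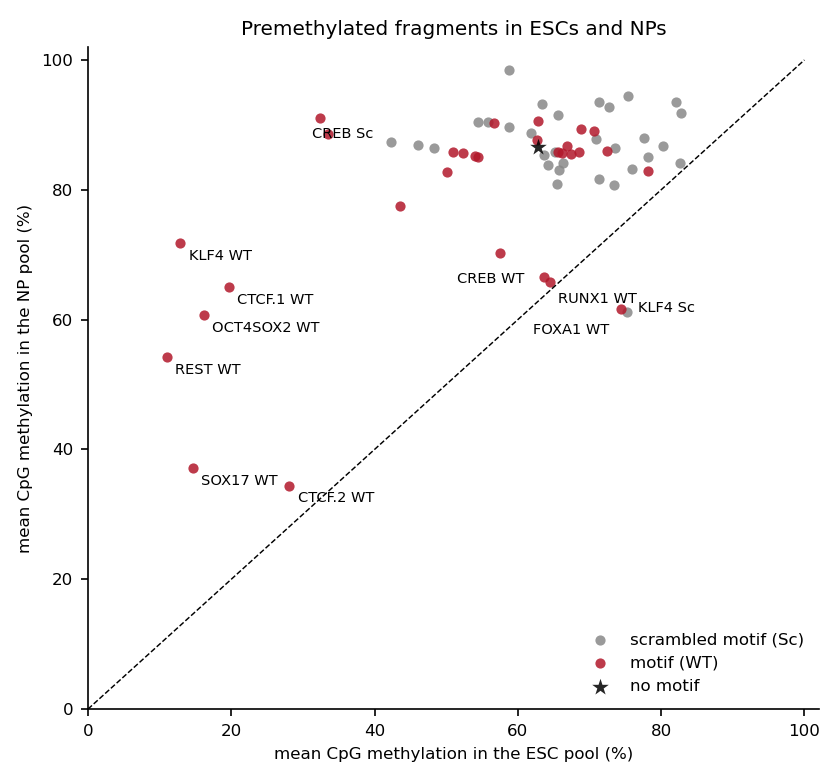
Mean CpG methylation (%) of each premethylated fragment in the ESC pool (horizontal axis) and the NP pool (vertical axis), over CpGs with at least 10 reads in both; red points are WT, grey points Sc, the star is the fragment without a motif and the dashed line marks equal levels. 60 of 62 points lie above the line, and CTCF.2 WT (28.1% and 34.4%) and SOX17 WT (14.6% and 37.1%) are the lowest in NPs.

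To separate the motif from the background, the Sc level was subtracted from the WT level at each CpG (Δmet, in percentage points, negative where the motif goes with less methylation). A CpG was called demethylated at a Δmet of -10 or below with an adjusted p under 0.05. A hypomethylated region (HMR) was at least 3 such CpGs in a row over more than 50 bp. Of 691 CpGs in 30 motif pairs, 337 (48.8%) were demethylated in ESCs and 248 (35.9%) in NPs. Demethylation was kept in both pools at 153 CpGs, seen in ESCs alone at 184 (lost) and in NPs alone at 95 (gained). An HMR was found in both pools for 8 motifs, in ESCs alone for 10, in NPs alone for 6 and in neither for 6. Whether the 8 shared motifs exceed what the counts in each pool alone would give was not tested.

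The change in Δmet itself was tested with the motif-by-cell term of a logistic model, which called 232 CpGs (33.6%) higher and 149 (21.6%) lower in NPs. A higher Δmet means that the gap between WT and Sc had narrowed or turned. Averaged over a fragment, Δmet rose by 20 points or more for 9 motifs and dropped as much for 3. Across the 30 motifs the order of Δmet in NPs had hardly any relation to that in ESCs (Spearman rho = 0.07). Pearson r was 0.38, and both values describe motifs that share runs. The median Δmet was -12.2 points in ESCs and -4.13 in NPs, and 23 motifs were below 0 in each.

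**Figure D2:**
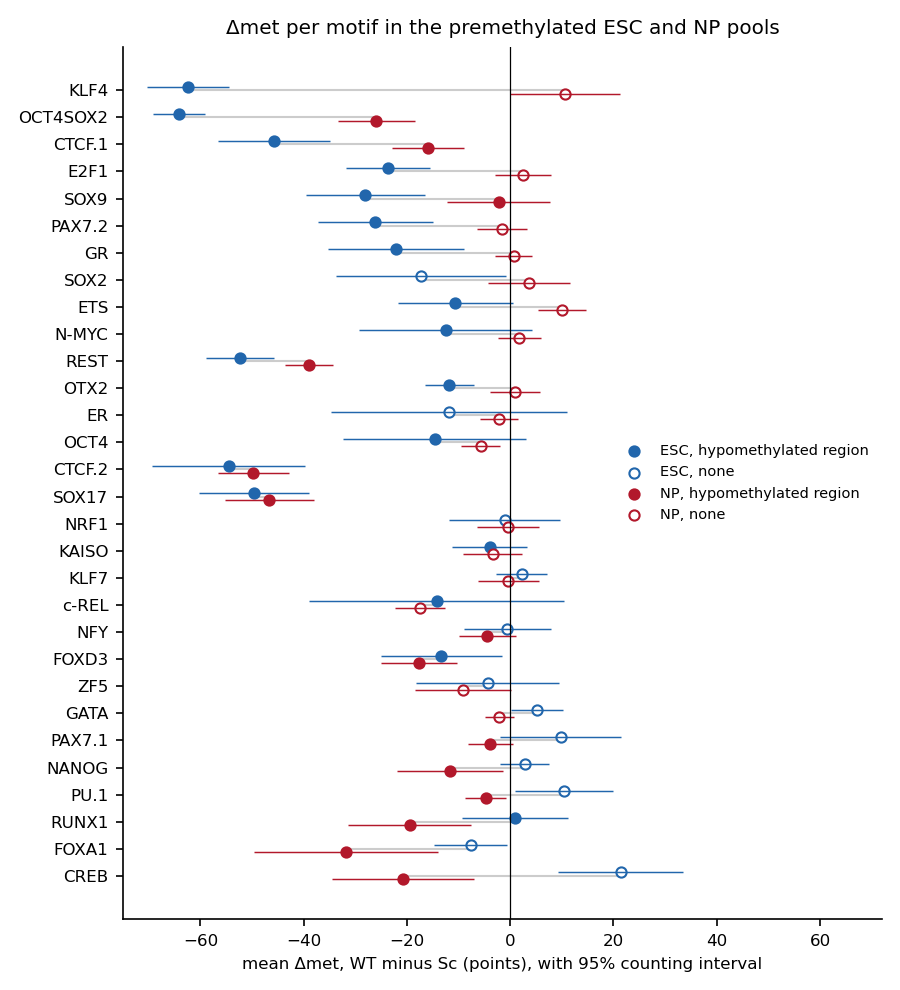
Mean Δmet (WT minus Sc, percentage points) of each of 30 motifs in the ESC pool (blue) and the NP pool (red), with 95% counting intervals and motifs ordered by the change; filled points mark motifs with a hypomethylated region. CTCF.2, SOX17 and REST stay far left in both pools, KLF4 moves from -62.5 to 10.7, and CREB moves the other way, from 21.4 to -20.8.

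CTCF, the zinc finger protein that marks loop boundaries and insulators, is represented by a pair of motifs. CTCF.2 kept its demethylation: the WT fragment was read at 28.1% in ESCs and 34.4% in NPs, and the Sc fragment at 82.6% and 84.2%. Δmet was -54.5 points (-69.3 to -39.7) in ESCs and -49.8 points (-56.6 to -42.9) in NPs. The change of 4.69 points had an interval of -11.6 to 21, and 21 of 24 CpGs were demethylated in both pools. Upstream, the WT fragment stood at 6.22% and 42.3% in ESC runs 4 and 5, and at 29.7%, 41.2%, 37.5%, 38% and 32.2% in NP runs 1, 2, 8, 9 and 10. The NP runs thus lay within the range of the ESC runs. Its Sc partner was read at 58.9% to 96.3% in NPs, above every WT run. Within the runs that held both fragments Δmet was -50.1 points in ESCs and -41.6 in NPs.

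The CTCF.2 region in NPs did not fill in evenly. Within 100 bp upstream the WT fragment was at 6.64% in ESCs and 28.6% in NPs, and between 100 and 200 bp upstream it was at 24.1% and 17.5%. Beyond 200 bp upstream it was at 47.8% and 59%. The main region ran from -178 to 252 bp in ESCs and from -187 to 151 bp in NPs.

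CTCF.1 kept part of its demethylation. The WT fragment rose from 19.7% in ESCs to 65% in NPs, with 23 of 24 CpGs called higher, while the Sc fragment went from 65.5% to 80.9%. Δmet went from -45.8 points (-56.6 to -34.9) to -15.9 points (-22.8 to -8.94), a change of 29.9 points (17 to 42.8), and 18 of 24 CpGs were called higher and 0 lower. Demethylation was kept at 15 CpGs and lost at 9, and the region shrank from 543 bp, the whole fragment, to 317 bp around the motif. Beyond 200 bp upstream Δmet changed from -37.3 to 1.06 points, between 100 and 200 bp from -49 to -15.5, and within 100 bp from -51.3 to -35.6. In ESCs the WT fragment was read upstream at 5.77% in run 4 and 36% in run 5. In NPs 98.3% of its upstream reads came from run 7, at 69.6%, and run 7 did not hold enough of the Sc fragment for a value. The Sc fragment stood at 56.7% and 59.8% in NP runs 1 and 8 and at 91.9% to 93.3% in runs 2, 9 and 10. At the 6 CpGs where a run held both, WT was 25.9 points above Sc in NPs, so that the remaining gap of CTCF.1 in NPs cannot be told apart from the runs. Without NP run 7 the change in Δmet was 51.8 points and no HMR was found in NPs.

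REST, the repressor of neuronal genes in non-neuronal cells, also stayed demethylated, at a higher level. Its WT fragment went from 11% in ESCs to 54.2% in NPs and its Sc fragment from 63.4% to 93.2%. Δmet was -52.4 points (-59 to -45.8) in ESCs and -39 points (-43.6 to -34.4) in NPs. All 24 CpGs were demethylated in ESCs and 21 of them in NPs. In ESC runs 3, 4 and 6 the WT fragment stood upstream at 0.654%, 7.25% and 27.2%, and in NP runs 1, 2, 9 and 10 at 61.4%, 57.8%, 57% and 62.1%. The pools did not overlap for WT, and no more did they for Sc, which was at 44.1%, 83.4% and 45.8% in ESC runs 3, 5 and 6 and at 91.8% and above in NPs. Δmet within runs was -41.7 points in ESCs and -37.4 points in NPs. Within NP runs 1 and 2, however, 10 of 24 CpGs were demethylated and no HMR was found. The change of 13.4 points (5.41 to 21.5) was concentrated at the ends: beyond 200 bp upstream Δmet changed by 29.6 points and downstream by 30.3, against 0.368 between 100 and 200 bp and 1.07 within 100 bp. The change over the fragment was -0.85 points without ESC run 4, 3.22 without run 5 and 22.6 without run 6, and without run 4 an HMR was still found in both pools.

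SOX17, an HMG-box factor of endoderm and blood vessel development, kept an HMR in both pools. The WT fragment was at 14.6% in ESCs and 37.1% in NPs, and the Sc fragment at 64.2% and 83.8%. Δmet was -49.6 points (-60.2 to -38.9) and -46.7 points (-55.3 to -38), and 20 of 23 CpGs were demethylated in both. Upstream the WT fragment was read at 2.41% in ESC run 4, which held 77% of its upstream reads, and at 34.7%, 34.8% and 43.2% in NP runs 2, 9 and 10. The Sc fragment ranged from 37.1% to 83.7% over ESC runs and from 56.7% to 93.6% over NP runs. In ESC run 4 alone Δmet was -25.4 points, and within NP runs 2, 9 and 10 it was -49.4. The place of the change differed along the fragment: downstream, where Δmet had been -5.37 points in ESCs, it was -39.3 points in NPs, and within 100 bp upstream it went from -67.1 to -39.2.

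**Figure D3:**
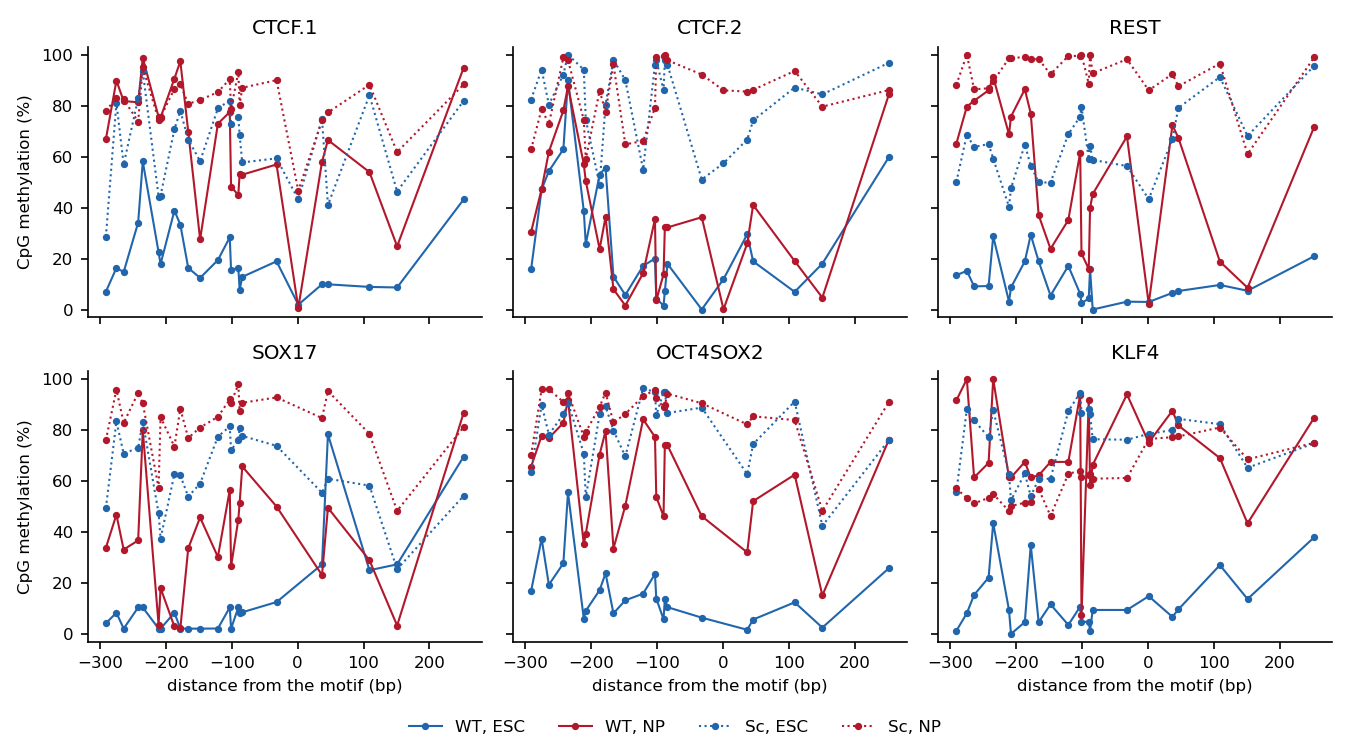
CpG methylation (%) against the distance from the motif (bp, negative upstream; CpGs inside the motif are numbered 1 to 3) for 6 motifs; blue lines are ESCs and red lines NPs, solid lines WT and dotted lines Sc. The single CpG inside the CTCF.1, CTCF.2 and REST motifs is at or under 2.23% in NPs while the nearest CpGs on either side are higher.

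The composite OCT4SOX2 motif, bound in ESCs by the pluripotency factors OCT4 and SOX2 together, lost most of its effect. The WT fragment was at 16.2% in ESCs and 60.7% in NPs, and all 23 CpGs were called higher, while the Sc fragment went from 80.3% to 86.7%. Δmet went from -64.2 points (-69.2 to -59.2) to -25.9 points (-33.3 to -18.5). The change of 38.2 points (29.3 to 47.2) was called at 21 of 23 CpGs. Over all reads, 19 CpGs were still demethylated in NPs and 4 were lost. Over runs the WT fragment stood upstream at 8.69%, 1.01% and 20.1% in ESC runs 3, 6 and 7, and at 65.2% and 64.2% in NP runs 6 and 7. The pools were far apart and the NP runs nearly equal. The Sc fragment was read at 74.3% and 83.6% in ESCs and 84.4% to 92.3% in NPs. No run of either pool held enough reads of both WT and Sc, so neither Δmet could be taken within a run. The change was 27 points without ESC run 5 and 52.8 without ESC run 7. Without NP run 7, which held 77.3% of the upstream WT reads, no HMR was found in NPs.

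The single motifs of these families behaved less clearly. OCT4 alone had a Δmet of -14.6 points (-32.3 to 3.09) in ESCs and -5.74 (-9.56 to -1.91) in NPs, with an HMR in ESCs alone. Its WT fragment was read upstream at 17.2% and 91.3% in ESC runs 4 and 5, a range wider than the difference between the pools, and at 83.9% to 96.6% in NPs. The change of 8.87 points was -28.7 without ESC run 4, where the HMR in ESCs was lost, and 30.8 without ESC run 5. SOX2 alone had no HMR, yet its Δmet went from -17.3 points (-33.7 to -0.867) to 3.63 points (-4.28 to 11.5). All upstream ESC reads of SOX2 WT came from run 4, at 52.4%, while 97% of those of its Sc fragment came from run 5, and the change of 20.9 points was 31.8 without that run. SOX9, a factor of neural crest, cartilage and glia, had an HMR of 155 bp in ESCs and of 72 bp, downstream, in NPs. Its Δmet went from -28.1 points (-39.6 to -16.6) to -2.21 points (-12.2 to 7.76). SOX9 WT was read upstream at 11.8%, 59% and 69.9% in ESC runs 4, 5 and 6 and at 89% and 96.8% in NP runs 1 and 8, and Δmet within ESC runs was -12.1 points. Downstream, where its region in NPs lay, SOX9 WT was at 27.5% and 18.3% in NP runs 1 and 11 and at 80% and 91.2% in runs 6 and 8. Within runs SOX9 had no HMR in either pool and a change of -0.405 points. The pooled change of 25.9 points was 15.3 without ESC run 4, and without ESC run 5 the HMR in ESCs was lost.

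KLF4, a pluripotency factor of the Krüppel-like family, showed the largest change among the 30 motifs. The WT fragment rose from 12.9% in ESCs to 71.8% in NPs, and 23 of 24 CpGs were called higher. Upstream it was read at 10.5% in ESC run 4, which gave 95.3% of these reads, and at 60.6%, 59.5% and 86.3% in NP runs 2, 9 and 10. The KLF4 Sc fragment went the other way, from 75.3% to 61.1%, and 14 of its CpGs were called lower. It stood apart between NP runs: 3.64% and 0.932% in runs 2 and 9, but 95.6% in run 7, 73.3% in run 1 and 64.5% in run 8. In ESC runs 4 and 5 it was at 97.7% and 71.4%. Δmet was -62.5 points (-70.4 to -54.5) in ESCs and 10.7 points in NPs (up to 21.3), and the change of 73.1 points (59.8 to 86.5) was called at all 24 CpGs. Within runs Δmet was -85.1 points in ESCs and 59.6 points in NPs, the latter in runs 2, 9 and 10, where the Sc fragment was nearly unmethylated. The rise of the WT fragment does not involve the Sc fragment, whereas the size of the change in Δmet does. KLF7, of the same family, had no HMR and a Δmet of 2.21 points (-2.76 to 7.18) in ESCs and -0.387 points (-6.26 to 5.48) in NPs.

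The CpGs inside the CTCF and REST motifs were nearly unmethylated in NPs, whatever the level around them. In NPs the CpG inside CTCF.1 was methylated in 0.637% of 471 WT reads and in 46.6% of 1315 Sc reads. The CpG inside CTCF.2 was methylated in 0.084% of 1191 WT reads and 86% of 738 Sc reads, and the one inside REST in 2.23% of 1707 WT reads and 86% of 931 Sc reads. In ESCs the same WT CpGs had been at 1.9%, 11.9% and 2.96%, and the Sc CpGs at 43.2%, 57.4% and 43.3%. At this position the gap between WT and Sc had widened in NPs, by 40.4 points for CTCF.2 (adjusted p = 1.87e-28, likelihood-ratio test) and 43.5 points for REST (adjusted p = 4.04e-06), while that of CTCF.1 did not pass the test (adjusted p = 0.159). The widening for REST lay in the rise of its Sc fragment. That for CTCF.2 lay in a rise of Sc and a smaller fall of WT. The other 16 CpGs inside motifs ranged from 38.6% to 93.9% in WT fragments of NPs. The lowest of them, in the motif of N-MYC, was at 19.6% in ESCs and 38.6% in NPs, against 50.9% and 84.3% in Sc. The CpG inside KLF4 went from 14.8% to 75.1%. The bases around a CpG differ between a motif and its scrambled form, so these CpGs are set side by side at the same place but not in the same sequence.

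The 10 motifs with an HMR in ESCs alone were KLF4, E2F1, GR, ETS, N-MYC, OTX2, OCT4, PAX7.2, KAISO and c-REL. Without ESC run 4 this count was 2, OTX2 and PAX7.2, while 5 of the others had no HMR in either pool and KLF4, GR and N-MYC could no longer be compared. E2F1, a regulator of the G1/S transition, went from a Δmet of -23.6 points (-31.8 to -15.5) to 2.49 points (-2.94 to 7.91), with 18 of 25 CpGs called higher. Its WT fragment was at 21.7% in ESC run 4 and 77.2% in ESC run 5, and at 14.1% in NP run 1 but 88.1% to 92.1% in NP runs 2, 9 and 10. Within runs E2F1 was at -4.31 points in ESCs and -51.6 in NPs, so the direction of the change turned. The pooled change of 26.1 points was 0.91 without ESC run 4 and 54.4 without ESC run 5. GR, the glucocorticoid receptor, went from -22.1 points (-35.2 to -8.97) to 0.647 points (-2.96 to 4.25). In ESC run 4 GR WT was at 27.6% and GR Sc at 27%, and within that run Δmet was -4.2 points. Without ESC run 5 the change for GR was 4.89 points. N-MYC had a Δmet of -12.5 points (-29.2 to 4.13) in ESCs, with no HMR there without ESC run 5, and -0.946 points within run 4, and ETS had -10.6 points (-21.8 to 0.527) and 4 points within runs 4 and 5. OTX2, a homeobox factor of the forebrain, was read in other runs: its WT fragment came at 99.8% from ESC run 7, at 54.1%, and at 98.5% from NP run 7, at 87.6%, and Δmet went from -11.8 points (-16.6 to -7.09) to 0.922 points (-3.86 to 5.71). The OTX2 change of 12.7 points turned to -17.4 without ESC run 5 and -45.3 without ESC run 7, and the HMR in ESCs was lost in both fits.

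PAX7.2, 1 of a pair of motifs for a muscle and neural tube factor, went from a Δmet of -26.1 points (-37.3 to -14.9) to -1.58 points (-6.4 to 3.23), with 17 CpGs lost. Its WT fragment was at 29.4% and 75.2% in ESC runs 4 and 6 and at 87.5% to 97.9% in 4 NP runs, and its Sc fragment was read upstream in ESC run 5, at 82.7%. Without ESC run 4 the change of 24.5 points was 10.3, without ESC run 6 it was 44.1, and without ESC run 5 the HMR in ESCs was lost. KAISO, which can bind methylated CpGs, had 1 downstream HMR in ESCs and a fragment mean close to 0 in both pools (-3.97 and -3.42 points). The KAISO change of 0.553 points was 35.8 without ESC run 5, and the HMR in ESCs was lost without ESC run 3 or run 4. c-REL, an NF-kappaB subunit, could be compared at 5 downstream CpGs. Δmet there was -14.2 points (-38.9 to 10.4) in ESCs and -17.4 points (-22.3 to -12.6) in NPs. Within runs c-REL had an HMR in NPs alone.

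Some motifs had a lower Δmet in NPs than in ESCs. Over pooled reads the mean level of a WT fragment fell for FOXA1 alone. For the other motifs described below with a lower Δmet, the pooled WT level was no lower in NPs and the Sc level rose more. RUNX1 WT was at 64.5% and 65.8% in ESCs and NPs, and its Sc fragment at 63.6% and 85.3%. This depended on the runs: the change of RUNX1 WT was -12.8 points as the mean of its run values, and -29.9 without ESC run 5. PU.1 WT was at 66.2% and 85.7%, and its Sc fragment at 55.8% and 90.5%. CREB, a basic leucine zipper factor whose motif holds a CpG, showed the largest drop: Δmet went from 21.4 points (9.31 to 33.5) in ESCs to -20.8 points (-34.6 to -6.98) in NPs, a change of -42.2 points (-60.6 to -23.8) called at 16 of 24 CpGs. CREB WT was at 63.7% and 66.6% in ESCs and NPs, a difference of 2.83 points (-11.7 to 17.4). CREB Sc went from 42.3% to 87.4%, so over pooled reads the drop in Δmet lay in the Sc fragment. ESC run 4 gave 34.7% of the upstream CREB Sc reads but 5.83% of those of CREB WT. Without that run the Sc change of 45 points was 30.4, and the change in Δmet was -31.7. CREB WT was read upstream at 26.7%, 76.8% and 65% in ESC runs 4, 5 and 6 and at 42.5%, 88.9% and 61.2% in NP runs 2, 6 and 9, with 10 to 19 reads per CpG in these NP runs, so the pools overlapped. Downstream it was at 10.6% in NP run 8 and at 68.3% to 73.6% in NP runs 2, 9 and 10, with 23 to 38 reads per CpG. Within runs Δmet was 15.7 points in ESCs and -23.6 in NPs. The CREB regions in NPs ran from -208 to -121 bp and from 37 to 109 bp.

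FOXA1, a forkhead factor known to bind closed chromatin, was among the 2 fragments that were less methylated in NPs. Its WT fragment was at 74.4% in ESCs and 61.6% in NPs, a difference of -12.8 points (-30.9 to 5.17), and 9 CpGs were called lower and 1 higher. Its Sc fragment went from 82.1% to 93.5%. Δmet went from -7.67 points (-14.8 to -0.574) to -31.9 points (-49.7 to -14), with an HMR over the 18 upstream CpGs in NPs. Upstream the NP value came from run 12, at 54.2% with 21 reads per CpG, which held 72.7% of these reads and hardly any other fragment. ESC run 7, at 75%, gave 99.1% of the ESC reads. Without NP run 12 FOXA1 had no HMR in NPs, and without ESC run 5 the change in Δmet was -47.6 points.

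FOXD3, a forkhead factor of ESCs and neural crest, had an HMR in both pools, of 78 bp in ESCs and 176 bp in NPs. Its mean Δmet was -13.4 points (-25.1 to -1.67) and -17.6 points (-25 to -10.3). FOXD3 WT was read upstream at 17.1% in NP run 1 but at 87% to 91.7% in NP runs 2, 9 and 10, and at 55.9% and 65.8% in ESC runs 4 and 5. Against the second Sc fragment Δmet was -8.31 points in ESCs and -12.8 in NPs, again with an HMR in both. The change of -4.24 points (-18.1 to 9.59) was 15.4 without NP run 1. The FOXD3 region in NPs was lost without NP run 1, and that in ESCs without ESC run 4 or run 5. RUNX1, a blood factor, went from 0.908 points (-9.43 to 11.2) to -19.5 points (-31.4 to -7.56), with 13 CpGs called lower. Its WT fragment was at 61.9% and 70.4% in NP runs 1 and 8, under its Sc fragment at 95.3% and 80.4% in the same runs. In ESC run 4 RUNX1 WT was at 99.4%, from 10 reads per CpG, and in run 5 at 67%. The RUNX1 change of -20.4 points was -88 without ESC run 5, where the HMR in ESCs was lost, -12.4 without ESC run 4 and -11.7 without NP run 1.

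NANOG, PU.1, NFY and PAX7.1 had HMRs in NPs alone, of 215, 143, 78 and 72 bp. Those of NANOG, PU.1 and PAX7.1 lay downstream of the motif, and that of NFY ran across it from -32 to 46 bp. Mean Δmet in NPs was -11.7 points (-21.9 to -1.49) for NANOG, -4.76 (-8.72 to -0.803) for PU.1, -4.42 (-9.92 to 1.09) for NFY and -3.84 (-8.16 to 0.482) for PAX7.1. Upstream, NANOG WT was read almost wholly in run 7 of both pools. Downstream, where its region in NPs lay, it was at 61.4%, 80.3%, 8.57% and 57.8% in NP runs 1, 7, 8 and 11. Without NP run 8 NANOG had no HMR in NPs, and without NP run 1 NFY had none. The NANOG change of -14.4 points was 4.77 without ESC run 7 and -51.2 without NP run 7. The PU.1 change of -15.1 points was -1.68 without ESC run 4 and -2.94 without ESC run 5. For PAX7.1 the change was -13.6 points over the pools and 24.5 within runs. Within runs NFY and PAX7.1 had an HMR in ESCs alone, and without ESC run 3 NFY had one in both pools. Besides SOX2, the motifs without an HMR in either pool were GATA, ER, KLF7, NRF1 and ZF5. ER had an HMR in ESCs without ESC run 5, and within ESC run 4, where Δmet was -40.3 points. Its Sc fragment had a median of 13 reads in ESCs. An HMR in NPs was found for ZF5 without NP run 7 and for NRF1 without NP run 8. NRF1 and ZF5 bind CpG-rich motifs, and their WT fragments were at 86% and 77.3% in NPs, with a Δmet of -0.465 (-6.43 to 5.5) and -9.17 points (-18.4 to 0.0619).

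**Figure D4:**
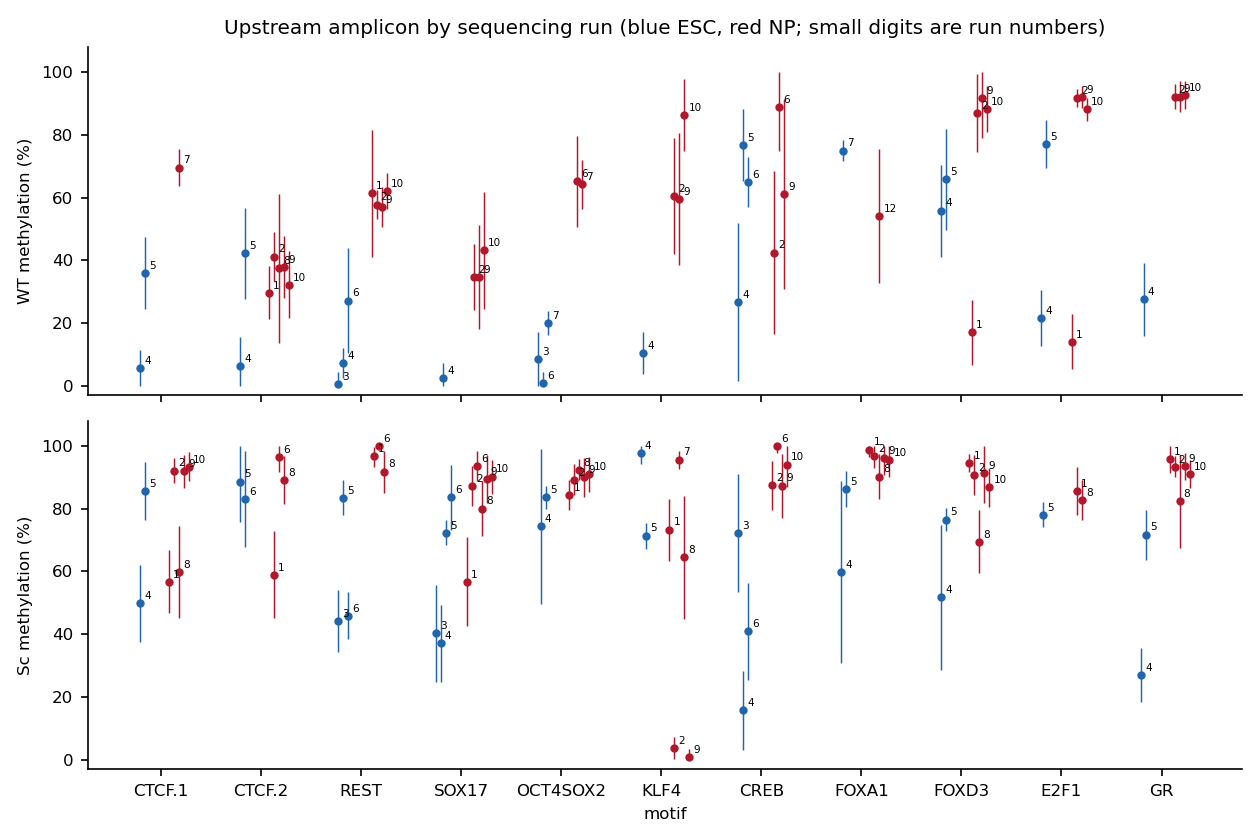
Upstream methylation (%) of WT (top) and Sc (bottom) fragments of 11 motifs in each run of the ESC (blue) and NP (red) pools. Bars are 95% counting intervals, and the run number stands beside each point. A run is shown where 50% or more of the upstream CpGs had at least 10 reads. REST and OCT4SOX2 WT do not overlap between pools, while CTCF.2 WT and CREB WT do. SOX17 and KLF4 WT have an ESC value from run 4 alone, which lies below their NP runs. KLF4 Sc is at 3.64% and 0.932% in NP runs 2 and 9.

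To set these changes beside the factors themselves, the genes of 29 factors were followed in the RNA libraries. Of 26 tested, 7 were higher and 7 lower in NPs, and 12 were not called. Over all genes tested, 12.4% were called higher and 9.98% lower. Among factors whose fragments stayed demethylated, Ctcf was at 46.5 ± 4.52 RPKM in ESCs and 42.6 ± 3.69 in NPs (n = 3) and was not called (log2 fold change -0.21, SE 0.13, edgeR adjusted p = 0.184). Rest fell 7.75-fold, from 73.8 ± 1.85 to 10.2 ± 1.49 RPKM (log2 fold change -2.95, SE 0.124, adjusted p = 8.77e-07). Sox17 was barely detected in ESCs, at 0.122 ± 0.0718 RPKM, and reached 4.14 ± 1.09 in NPs (log2 fold change 4.99, SE 0.418, adjusted p = 2.03e-05). The 3 genes differed in direction. Over all reads their motifs had an HMR in both pools, but within runs CTCF.1 and REST had one in ESCs alone.

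Among the factors of weakened motifs, Klf4 fell from 73.9 ± 1.22 to 3 ± 0.201 RPKM (log2 fold change -4.71, SE 0.119, adjusted p = 2.65e-07) and Pou5f1 by 8.51 on the log2 scale (SE 0.416, adjusted p = 1.54e-06). Sox2 fell 4.25-fold but was still at 58 ± 6.05 RPKM in NPs, a level that is uncertain because the gene overlaps Sox2ot. Of the 9 motifs whose Δmet rose by 20 points or more, the gene was lower for 3 (KLF4, OCT4SOX2 and SOX2), not called for 3 (CTCF.1, E2F1 and GR) and higher for 3 (ETS, PAX7.2 and SOX9). Sox9 went from 0.059 ± 0.0267 to 22.1 ± 2.82 RPKM. Of the 3 motifs whose Δmet dropped by 20 points or more, Foxa1 rose from 0.392 ± 0.123 to 16 ± 3.66 RPKM (log2 fold change 5.27, SE 0.318, adjusted p = 4.09e-06). Creb1 was at 3.54 ± 0.334 and 8.16 ± 1.58 RPKM, under the 3-fold limit (log2 fold change 1.12, adjusted p = 0.000416), and Runx1 was below the level needed for a test. Among the 18 remaining motifs, the genes of 5 were lower (FOXD3, NANOG, OCT4, OTX2 and REST), a gene of 3 was higher (GATA, PAX7.1 and SOX17), 9 had a gene that was not called and 2 a gene that was not tested, with GATA, which has several genes, counted in more than 1 class. The relation of gene level and Δmet was not tested.

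**Figure D5:**
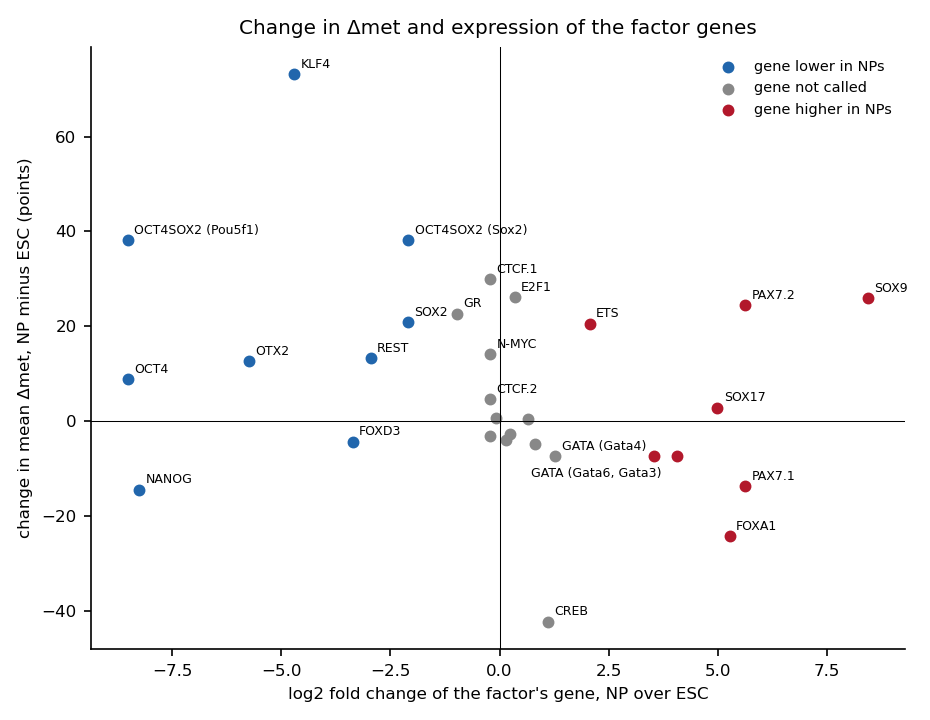
Change in mean Δmet (NP minus ESC, percentage points, vertical axis) against the log2 fold change of the factor's gene (NP over ESC, horizontal axis); blue points are genes called lower, red points higher and grey points not called, and points near the origin carry no label. KLF4 lies at -4.71 and 73.1, FOXA1 at 5.27 and -24.2, and CTCF.1 at -0.21 and 29.9.

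Of 13 related factors, 12 were tested, and 7 were higher and 2 lower in NPs (12.4% and 9.98% over all genes tested). Pou3f2 and Pou3f3, POU factors of neural cells, rose from 0.0518 ± 0.02 and 0.0727 ± 0.0245 to 22.8 ± 7.4 and 19.1 ± 6.07 RPKM. Sox3, Sox4, Sox11 and Sox1, relatives of SOX2, rose to 65.6 ± 26.6, 38.5 ± 10.9, 52.9 ± 11.7 and 12.7 ± 4.06 RPKM. Foxa2, the closest relative of FOXA1, went from 0.171 ± 0.102 to 10.9 ± 1.48 RPKM. Klf2 and Klf5, which bind a motif similar to that of KLF4, fell from 182 ± 15.6 to 1.62 ± 1.12 and from 76 ± 5.19 to 5.07 ± 1.14 RPKM.

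The enzymes that write and remove methylation moved with the cell type as well. Of 8 genes, Dnmt3b, Dnmt3l, Tet1 and Tet2 were lower in NPs and Tet3 was higher (9.98% and 12.4% over all genes tested). Tet1 went from 66.7 ± 4.59 to 4.46 ± 1.12 RPKM (log2 fold change -3.99, SE 0.205, adjusted p = 1.91e-06) and Tet2 from 19.4 ± 2.52 to 3.54 ± 0.645. Dnmt3b went from 59 ± 5.39 to 6.66 ± 1.5 and Dnmt3l, a cofactor of the de novo enzymes, from 151 ± 17.9 to 0.325 ± 0.258. Dnmt1 and Dnmt3a were not called, at 72.1 ± 2.75 and 15.7 ± 2.2 RPKM in NPs, and Uhrf1 was at 115 ± 5.74 and 59.2 ± 2.27, under the 3-fold limit. These levels moved with the overall gain of methylation on WT and Sc fragments alike, and their part in it was not tested.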

How the data were processed

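Bisulfite amplicon reads were, per the labels, trimmed with Trim Galore 0.4.4 and mapped with Bismark 0.20.0, and the authors removed duplicates by molecular identifiers. The deposited tables give, as counts, the reads and the methylated reads of each fragment, CpG and run. The RNA-seq counts per gene were deposited by the authors (Trimmomatic 0.38, STAR 2.6.1b, featureCounts 1.6.2, GRCm38, counted without strand),.

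Reads were summed over runs. NP was compared with ESC, and WT with Sc, by two-sided Fisher's exact tests per CpG, and the change in Δmet by a likelihood-ratio test of the motif-by-cell term in a binomial logistic model, with Benjamini-Hochberg adjustment over all CpGs of a comparison (Python 3.11.15, scipy 1.17.1). CpGs of 1 amplicon come from the same molecules and are not independent. RNA counts were tested with edgeR 4.0.16 (TMM, quasi-likelihood) on genes reaching 1 RPKM in 1 or more libraries. RNA replicates are taken as labelled; whether they came from separate cultures is not given in the sources used here, so p-values measure the spread between these libraries.

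Described in full were motifs with an HMR in either pool or a change in Δmet of at least 20 points, the fragment without a motif and the factor genes. Members and gene lists were chosen with earlier results of these data known. Alternatives were other read and point limits, leaving out each run or library, WT against Sc within runs and all Sc fragments as reference. Levels were also taken as the mean of the run values and as the share of methylated calls over a fragment. For RNA the alternatives were DESeq2 1.42.0, no filter on low counts and a replicate block. Runs 2 and 9 as 1 run and the second scrambled FOXD3 fragment were added after the data were seen. Scripts were tested on simulated data. Motif sequences are not printed here.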

Additional observations from a re-analysis of the deposited data

Results flagged for a closer look

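The difference between WT and Sc differed between the cell types by the test of the motif-by-cell term at 232 CpGs with a higher and 149 CpGs with a lower Δmet in NPs. The widest changes of a whole fragment were those of KLF4, 73.1 points, and CREB, -42.2 points. For KLF4 the Sc fragment was at 3.64% and 0.932% in NP runs 2 and 9 and at 95.6% in run 7. For CREB the WT fragment was read upstream with 10 to 19 reads per CpG in NP runs 2, 6 and 9.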

How the results depend on the processing

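Of 272 counts and means recomputed under alternatives, 257 stayed close to the reported value (within 1.5 times for a count). With a limit of 20 points, 32 CpGs were lower in NPs, 2 motifs had an HMR in NPs alone and 101 CpGs kept their demethylation. Within runs holding both WT and Sc, which compares 424 CpGs of 21 motifs, 4 motifs had an HMR in both pools, 60 CpGs kept and 110 lost their demethylation, and Δmet was higher in NPs at 110 CpGs. With all Sc fragments as reference, 3 motifs had an HMR in NPs alone. Taken as the mean of the run values, the change was -35.1 points for KLF4 Sc (-14.2 pooled) and -12.8 for RUNX1 WT (1.36 pooled). By the same measure it was 37.1 points for RUNX1 Sc (21.7 pooled) and 22.7 for E2F1 WT (33.4 pooled). Without a filter on low counts, 2588 genes were lower in NPs.

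Leaving out each run in turn, the mean change was 13.9 to 31.8 points for WT and 15.7 to 25.8 for Sc fragments, CpGs lost were 77 to 204, CpGs with a higher Δmet 125 to 246, motifs with an HMR in ESCs alone 2 to 11 and in both pools 5 to 9. The low ends of the WT mean, lost CpGs, higher Δmet and ESC-only motifs were those without ESC run 4, and the 5 motifs in both pools that without ESC run 5. A change of sign in 1 or more of these fits was seen for the level of CTCF.1 Sc (-0.169 to 28.9 points), OCT4 WT (-2.84 to 63.9), RUNX1 WT (-29.9 to 5.9), NANOG WT (-30.2 to 23.3), E2F1 Sc (-11.3 to 8.54), CTCF.2 WT (-1.19 to 23.3) and Sc (-4.13 to 7.79), CREB WT (-5.68 to 9.41), KLF7 WT (-4.21 to 21.8), NRF1 WT (-16.4 to 13.8), NRF1 Sc (-12.4 to 13), SOX2 Sc (-5.41 to 11.6), OTX2 WT (-23.7 to 30.8) and ZF5 WT (-9.72 to 45.9), and for the change in Δmet of ETS (-1.6 to 41.5), REST (-0.85 to 22.6), OTX2 (-45.3 to 15.6), NANOG (-51.2 to 4.77), OCT4 (-28.7 to 30.8), FOXD3 (-18 to 15.4), KAISO (-3.38 to 35.8), NRF1 (-7.62 to 19.4), ZF5 (-49 to 7.48), SOX17 (-8.94 to 6.02), KLF7 (-7.11 to 7.61), NFY (-6.19 to 4.34) and CTCF.2 (-2.59 to 19.6). Within runs the change in Δmet was -47.3 for E2F1, 24.5 for PAX7.1 and -0.405 for SOX9. With at least 50 reads it was -14.3 for N-MYC, the value of the CpG inside its motif and not that of the whole fragment. The cause of these changes of sign was not tested. Leaving out an RNA library, Ets1 and Gata3 missed the threshold without some libraries.

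With the RNA replicate number as a block, 1855 genes were higher and 1504 lower in NPs. The replicate numbers did not pair the libraries, since deviations from the group means correlated at -0.06, 0.01 and -0.13. The block changed no call of a named gene. No paired analysis of the pools was possible because there is 1 pool per cell type.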
